A study of Homo sapiens with 3 samples.

Results

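The arms of miR-192, miR-194 and miR-215 were examined in extracellular vesicles (EVs) from HepG2 cells. These miRs come from 2 paralogous clusters, and their members were taken by name, as every row of the deposited count table that is an arm of one of the 3 miRs. The rule found 5 of the 512 rows, namely hsa-miR-192-5p, hsa-miR-192-3p, hsa-miR-194-5p, hsa-miR-194-3p and hsa-miR-215-5p (hsa, for Homo sapiens, is left out of most names below), and 4 of these 5 had a count in any batch. A further row for the whole precursor mir-192 was at 0 in each batch and is not an arm. The arm miR-215-3p was not analysed here. HepG2 is an established human line of liver tumor cells, labelled as wildtype hepatocytes, and EVs are membrane-enclosed particles that cells release. The EVs were spun down from serum-free medium in which the cells had been kept for 48 h, in 3 batches of 1 condition with no other group, and 1 small RNA library was made per batch. The totals were 8704, 10834 and 7933 miR counts in batches 1, 2 and 3. Each value below is a raw count or a share of the batch total, and intervals, floors and p-values account for counting error alone, as reads amplified by PCR and carrying no molecular identifiers are not independent.

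A miR is a short RNA that guides silencing proteins to messenger RNAs, mainly by pairing of its seed, the stretch of bases near its 5′ end, with the 3′ untranslated region (3′ UTR). A precursor hairpin can give a 5p arm and a 3p arm, of which one is often kept and the other degraded. miR-192, miR-194 and miR-215 are known as miRs of liver, gut and kidney epithelium, are driven there by hepatocyte nuclear factors, and can be induced by the tumor suppressor p53. miR-192 and miR-194 are made from a shared primary transcript, as are miR-215 and a further copy of miR-194.

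The mature arms are shown because their seeds divide the family. The sequences are from RefSeq (GRCh38.p14) and run 5′ to 3′, with the seed, bases 2 to 8, in capitals.
miR-192-5p: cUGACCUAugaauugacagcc
miR-215-5p: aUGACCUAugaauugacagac
miR-194-5p: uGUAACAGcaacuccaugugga
miR-192-3p: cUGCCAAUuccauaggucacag
miR-194-3p: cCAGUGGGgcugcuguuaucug
miR-192-5p and miR-215-5p share the seed UGACCUA and were identical at 19 of 21 positions. With positions counted from 1 at the 5′ end and the base of miR-192-5p given first, they differ by C1A and C20A. Bases 2 to 19 are the same 18 bases in both, so a read that lacks both ends cannot be told apart between them. No other mature miR in the RefSeq table has the seed UGACCUA or the seed GUAACAG of miR-194-5p.

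The precursors are shown because they carry the cluster layout. In each hairpin the annotated mature arms are in capitals.
MIR192: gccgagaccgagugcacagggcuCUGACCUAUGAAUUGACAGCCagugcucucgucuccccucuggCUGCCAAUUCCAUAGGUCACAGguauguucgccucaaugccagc
MIR194-2: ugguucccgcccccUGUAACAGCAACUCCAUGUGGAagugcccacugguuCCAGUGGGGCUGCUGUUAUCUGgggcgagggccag
MIR215: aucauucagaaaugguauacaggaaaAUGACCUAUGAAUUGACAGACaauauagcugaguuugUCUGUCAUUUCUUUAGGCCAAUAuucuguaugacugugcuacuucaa
MIR194-1: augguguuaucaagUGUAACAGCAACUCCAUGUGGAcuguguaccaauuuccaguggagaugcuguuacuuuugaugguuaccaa
MIR192 lies at chr11:64891137-64891246 and MIR194-2 at chr11:64891355-64891439, both on the minus strand, with 108 bases between them. In GENCODE 29 both fall in exon 2 of 2 of the long noncoding RNA MIR194-2HG, on the same strand. MIR215 lies at chr1:220117853-220117962 and MIR194-1 at chr1:220118157-220118241, both on the minus strand, in an intron of IARS2, a mitochondrial isoleucyl-tRNA synthetase gene that runs on the opposite strand. Over the whole hairpins the paralogs were less alike than in their 5p arms. MIR192 and MIR215 were identical at 67 of 122 columns of the alignment, gaps included, and MIR194-2 and MIR194-1 at 63 of 95. Neighbors that are not paralogs came near the first value, with 55 of 114 for MIR192 and MIR194-2 and 62 of 117 for MIR215 and MIR194-1. Both copies of miR-194 give the same 5p arm, so counts of miR-194-5p cannot be assigned to a locus. The 3p arm miR-194-3p is annotated on MIR194-2 alone in this table.

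hsa-miR-192-5p was the abundant member of the family in HepG2 EVs, with 234, 327 and 259 counts in batches 1, 2 and 3. These were 2.69%, 3.02% and 3.26% of the miR counts, with 95% Wilson intervals of 2.37% to 3.05%, 2.71% to 3.36% and 2.90% to 3.68%. The 3 intervals overlap, and the mean share was 2.99% ± 0.289 (SD, n = 3 batches). miR-192-5p took rank 9, 7 and 6 in the 3 batches and rank 8 by mean share.

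The other members were rare. hsa-miR-194-5p had 7, 7 and 3 counts, or 0.0804%, 0.0646% and 0.0378% of the batch totals (mean 0.0610% ± 0.0215, SD, n = 3), and took rank 78, 68 and 90. hsa-miR-215-5p had 3, 1 and 0 counts, a mean share of 0.0146% ± 0.0178 (SD, n = 3). The 2 counts of miR-194-3p were both in batch 1. hsa-miR-192-3p had 0 counts in each batch, which allows shares of up to 0.0345%, 0.0277% and 0.0378% (3 counts of the total). Only the first of these arms had a count in every batch, and the summed counts of miR-215-5p and miR-194-3p, 4 and 2, are near the limit of what the libraries could detect. The family as a whole held 843 counts, 3.07% ± 0.239 of the batch totals (SD, n = 3), and 97.3% of these counts were of miR-192-5p. Of the 824 counts with the seed UGACCUA, miR-192-5p gave 99.5%.

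**Figure D1:**
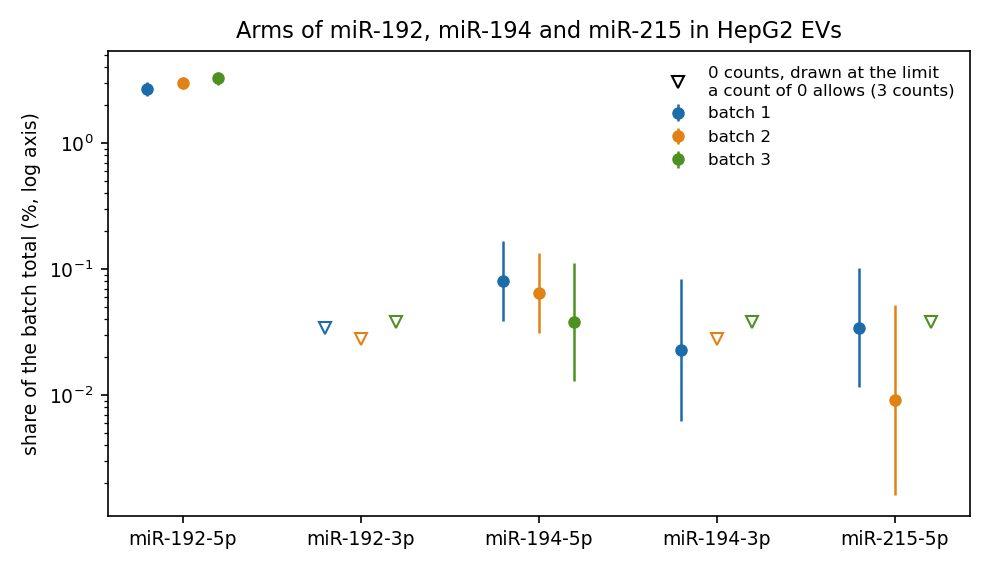
Share of the batch total (%, log axis) for the 5 arms in HepG2 EVs, 1 point per batch with its 95% Wilson interval; open triangles stand for 0 counts and are drawn at the limit that a count of 0 allows, 3 counts of the batch total. miR-192-5p lies near 3% in the 3 batches, and the other arms lie below 0.1%.

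Within the cluster on chromosome 11, miR-192-5p exceeded miR-194-5p by 33.4, 46.7 and 86.3 times in batches 1, 2 and 3. With 0.5 added to each count, the log2 ratio was 4.97, 5.45 and 6.21, a mean of 5.54 ± 0.63 (SD, n = 3). The summed counts, 820 and 17, gave a ratio of 48.2 with an exact 95% interval of 29.9 to 83.2. The ratio was above 1 in 3 of 3 batches. With 3 batches an exact sign-flip test (two-sided) cannot go below p = 0.25, and it stood at that value for each of the 7 ratios computed. Because miR-194-5p is also made from chromosome 1, the gap between miR-192-5p and the miR-194-5p of its own cluster can be larger than this ratio but not smaller, as far as counts measure it.

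The 2 paralogs with the shared seed were further apart. miR-192-5p had 78 times the counts of miR-215-5p in batch 1 and 327 times in batch 2. In batch 3, miR-192-5p had 259 counts and miR-215-5p had 0. The log2 ratio averaged 7.62 ± 1.48 (SD, n = 3), and the summed counts gave a ratio of 205 with an exact 95% interval of 79.8 to 754. In the cluster on chromosome 1, miR-194-5p exceeded miR-215-5p by 4.25 times in summed counts, with an interval of 1.39 to 17.4, and the log2 ratio averaged 2.08 ± 0.88 (SD, n = 3). That value is an upper limit for the chromosome 1 copy, since it counts miR-194-5p of both loci.

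No change of these ratios between the batches was detectable. Fisher's exact test of the 3 batches gave p = 0.389 (adjusted p = 0.584) for miR-192-5p over miR-194-5p, p = 0.144 (adjusted p = 0.288) for miR-192-5p over miR-215-5p and p = 0.609 (adjusted p = 0.632) for miR-194-5p over miR-215-5p, with Benjamini-Hochberg adjustment over the 6 ratios for which it could be computed. miR-194-5p had only 3 to 7 counts per batch, which limits what these tests could detect.

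The arms of the precursors were also unequal. No 3p arm of miR-192 was counted beside 820 counts of the 5p arm, which is 273 times a floor of 3 counts over the summed batches. The exact 95% interval of the ratio of the 5p to the 3p arm has a lower limit of 221.8. For miR-194, the 5p arm had 17 counts and the 3p arm 2, a ratio of 8.5 with an exact 95% interval of 2.02 to 75.9. The 5p arm counts both copies of miR-194, while the 3p arm is annotated on MIR194-2 alone. The ratio is therefore an upper limit for MIR194-2, as far as counts measure it. Among 20 precursors with both arms in the table and at least 100 counts, 7 had no count on the minor arm, and the median minor arm share was 0.238%. miR-192 had the most counts of those 7 and was at place 6 of the 20 by counts. The other 6 were miR-30d, miR-342, miR-25, miR-151a, miR-330 and miR-532.

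Members of other clusters were also counted unevenly. Of 29 clusters listed, 19 had at least 10 summed counts, and their median gap between the highest and the lowest member was 4.98 on the log2 scale, with 0.5 added to each count. The gap was 5.39 between miR-192 (820 counts of both arms) and miR-194 (19 counts), place 9 of 19, and 2.12 between miR-194 and miR-215 (4 counts), place 13. Both gaps use all 19 counts of miR-194, and with the 17 counts of the 5p arm, the arm annotated on MIR194-1, the gap to miR-215 was 1.96. Larger gaps were seen for miR-191 over miR-425 (5388 and 62 counts), for miR-99b over let-7e (313 and 2 counts) and for miR-183 over miR-96 (337 and 4 counts). The largest was in the miR-17/92 cluster, with 641 counts of miR-92a, which a further locus also encodes, and 0 of miR-19a. A gap from highest to lowest can grow with the number of members, so these places do not compare like clusters. Both miR-194 clusters have 2 members, as have 12 of the 19 in all. The miR-99b and miR-183 clusters have 3 and miR-17/92 has 6. When clusters were instead built from RefSeq hairpins within 10 kb, the gap of MIR192 and MIR194-2 was at place 10 of 25 and that of MIR194-1 and MIR215 at place 18.

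**Figure D2:**
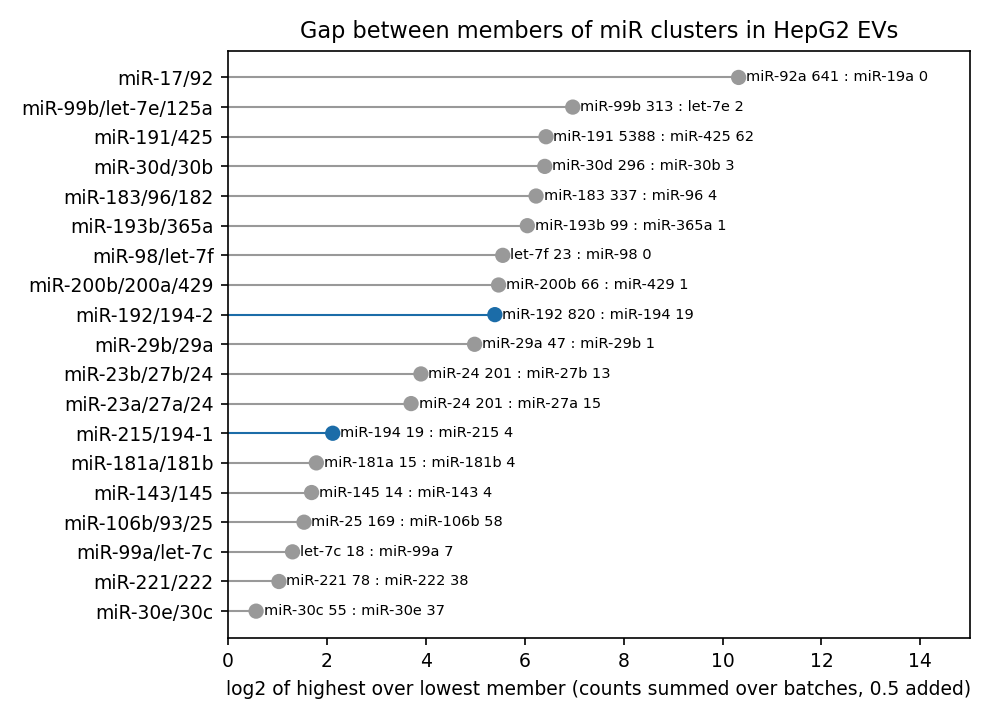
Gap between the highest and the lowest member of 19 miR clusters in HepG2 EVs, as the log2 ratio of counts summed over the batches and both arms with 0.5 added; each point is a cluster, labelled with its highest and lowest member and their counts. The 2 clusters in blue are miR-192/miR-194-2, with a gap of 5.39, and miR-215/miR-194-1, with a gap of 2.12 that includes the 2 counts of miR-194-3p and is 1.96 without them.

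The share of miR-192-5p was then compared between the batches. An exact multinomial test of each miR with at least 30 summed counts called 25 of 64 miRs, or 39.1%, with the threshold of 0.05 on the adjusted p. Without adjustment 28 would pass. The share of miR-192-5p did not pass this exact test (p = 0.0949, adjusted p = 0.179). The test compares 3 libraries with counting noise, not conditions. Of the 10 most abundant miRs, 8 were called, the exceptions being miR-192-5p and miR-483-5p (adjusted p = 0.373). The coefficient of variation of the miR-192-5p share was 9.67%, where counting alone would give 6.11%. It was the 6th lowest of 64, whose median was 23.1%, but rarer miRs vary more by counting alone. The chi-squared statistic per degree of freedom, which sets the spread against counting error, was 2.34 for miR-192-5p. That was place 31 of 64 from the lowest, near the median of 2.68. In a test that also took rarer miRs, with at least 2 summed counts, 23 of 205 were called and none was a member. The adjusted p was 0.791 for miR-194-5p, 0.492 for miR-215-5p and 0.465 for miR-194-3p, and their unadjusted p-values were 0.563, 0.197 and 0.184. With 2 summed counts, no split over the batches could bring miR-194-3p under 0.05, and the 4 counts of miR-215-5p left little room to pass. No difference of these rare arms between batches was detectable at this depth.

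This call depended on what the counts were divided by. Scaled by TMM factors, which align the bulk of the miRs, miR-192-5p was at 2.19%, 3.37% and 3.58% in batches 1, 2 and 3 and differed between them (adjusted p = 6.73e-08, 34.4% of 64 miRs called). DESeq2 size factors gave 2.27%, 3.12% and 3.70% (adjusted p = 1.64e-06, 31.2% called). As a share of totals without the 5 most abundant miRs, it was 5.14%, 8.16% and 9.05% (adjusted p = 1.56e-09, 25.4% of 59 called). The highest batch was 1.21 times the lowest on the batch totals, and 1.63, 1.63 and 1.76 times under these scalings. Batch 1 was the lowest under all 4. Without batch 1 the difference was not called under any of them, with adjusted p = 0.894 on the batch totals and 0.875, 0.228 and 0.841 under the 3 scalings. Those 3 fits without batch 1 were chosen after seeing the data.

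**Figure D3:**
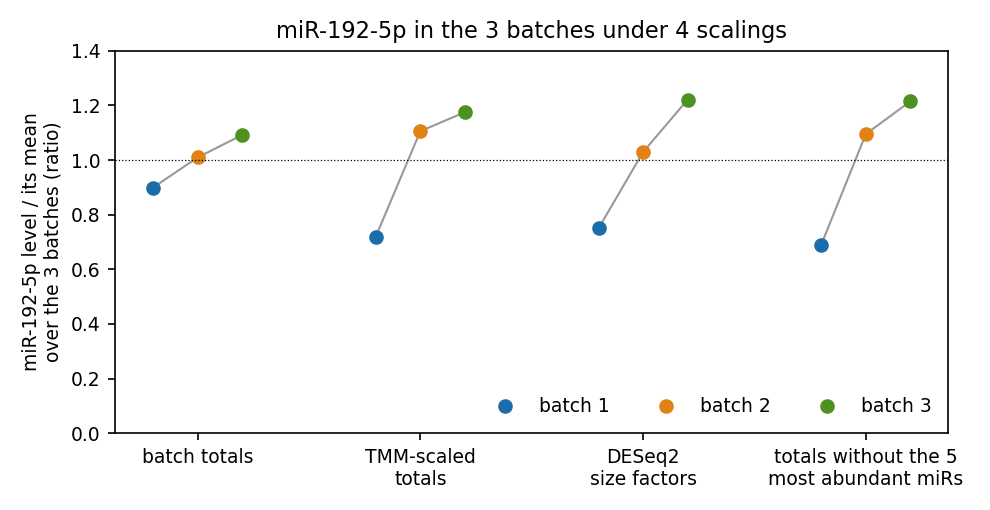
Level of miR-192-5p in each batch, divided by its mean over the 3 batches (ratio, axis from 0), under 4 ways of scaling the counts; each point is a batch and lines join the batches of 1 scaling. Batch 1 is lowest under each, and the highest batch is 1.21 times the lowest on the batch totals and 1.63 to 1.76 times under the other 3.

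The sum of the 5 leading miRs moved with this difference. The 5 most abundant miRs (miR-483-5p, miR-423-5p, miR-191-5p, miR-320a and miR-148a-3p) held a smaller part of batch 1, 47.7% of its counts, than of batches 2 and 3, with 63.0% and 63.9%. Per 100 counts of these 5, there were 5.63, 4.79 and 5.11 counts of miR-192-5p, and this ratio did not pass the test between batches (Fisher's exact p = 0.182). Per 100 counts of the other 310 miRs with a count, there were 5.42, 8.88 and 9.95, and this ratio differed (Fisher's exact p = 9.15e-12). Without batch 1 the same exact test of the second ratio gave p = 0.204. Both ratios were chosen after values had been seen. The part of the leading miRs in the lower scaled level of batch 1 was not tested.

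Single miRs were set against miR-192-5p within each batch, a ratio that does not depend on the total. Of 63 miRs with at least 30 summed counts, 24, or 38.1%, had a ratio to miR-192-5p that differed between the batches (Fisher's exact test, adjusted p under 0.05). Without adjustment 31 would pass. Of the 24, 22 had their highest ratio in batch 1, 2 in batch 2 (miR-146a-5p and miR-191-5p) and 0 in batch 3. Most of the miRs that were not called also had their highest ratio in batch 1. All 63 ratios share miR-192-5p as denominator, so they are not separate observations. Without batch 1, 3 of 49 were called, and each of the 3 was among the 24. Without batch 3, 15 of 58 were called. When each of the 13 miRs with at least 300 summed counts, miR-192-5p included, was set against the others in the same way, 16 to 50 of 63 ratios were called, with a median of 28, so the 24 of miR-192-5p lay within that range. miR-21-5p, an abundant miR of many cell types, had 272 counts per 100 of miR-192-5p in batch 1 and 82.0 and 84.6 in batches 2 and 3 (adjusted p = 1.28e-32). miR-92a-3p, of the miR-17/92 cluster, had 115, 66.7 and 59.1 (adjusted p = 4.58e-06).

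Among the liver miRs, the ratio of miR-192-5p to miR-122-5p, the dominant miR of adult hepatocytes, differed between the batches, and no such difference was detected for its ratio to miR-148a-3p. The other arm of that precursor, miR-148a-5p, was called, with 9.83, 2.14 and 2.70 counts per 100 of miR-192-5p (adjusted p = 0.00110). miR-148a-3p had 391, 418 and 343 counts per 100 of miR-192-5p, and the log2 ratio of miR-192-5p to it was -1.96, -2.06 and -1.78 (mean -1.93 ± 0.15, SD, n = 3). This ratio did not pass the test between batches (adjusted p = 0.174 over the 63 miRs). miR-122-5p had 216, 98 and 130 counts where miR-192-5p had 234, 327 and 259, so that it was nearly level with it in batch 1 and well below it in batches 2 and 3 (adjusted p = 1.99e-12). The log2 ratio of miR-192-5p to miR-122-5p was 0.12, 1.73 and 0.99, above 0 in 3 of 3 batches, and miR-192-5p had 1.85 times its summed counts.

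The miRs with at least 100 summed counts whose ratio to miR-192-5p varied least over the 3 batches, of 33 compared, were miR-1307-3p, miR-483-5p and miR-1292-5p, with SDs of the log2 ratio of 0.0719, 0.0817 and 0.114. miR-1307-3p had 15.4, 14.7 and 16.2 counts per 100 of miR-192-5p and miR-483-5p had 288, 276 and 258. These values are descriptions, since the 3 miRs were picked by their low SD in the same 3 batches and all ratios share miR-192-5p as denominator.

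**Figure D4:**
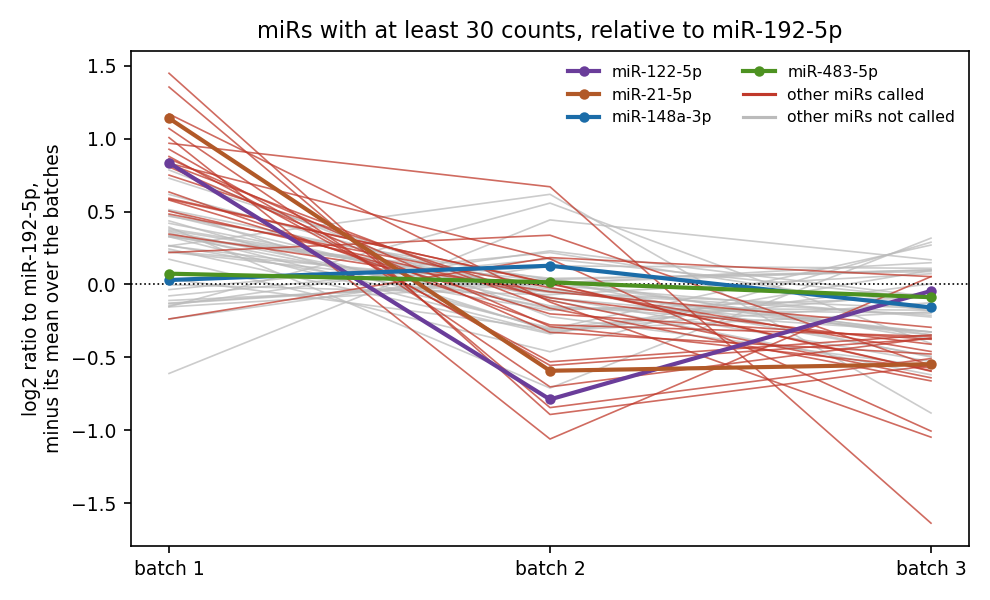
Log2 ratio of each miR with at least 30 summed counts to miR-192-5p in the 3 batches, minus the mean of that ratio over the batches; each line is a miR, red where the ratio differed between batches at an adjusted p under 0.05 and grey where it was not called, with 4 miRs drawn thick. miR-21-5p and miR-122-5p, both called, are high in batch 1, while miR-148a-3p and miR-483-5p, not called, stay near 0.

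In the order of levels, miR-192-5p could not be set apart from every neighbor. By exact binomial tests of the 6 neighboring pairs, it did not differ in batch 1 from miR-92a-3p above it (268 counts, adjusted p = 0.219) or miR-122-5p below it (216 counts, adjusted p = 0.508). In batch 2 it did not differ from miR-423-3p (338 counts, adjusted p = 0.698), and the gap to miR-21-5p below it (268 counts) had an adjusted p of 0.0520. In batch 3 it was below miR-483-5p (667 counts, adjusted p = 2.23e-41) and not set apart from miR-423-3p below it (226 counts, adjusted p = 0.219). The neighbors were picked by rank from the same counts, which favors finding no difference, so these tests are descriptive.

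Markers of other tissues were sparse beside miR-192-5p, though the stromal and endothelial ones were not sparse beside the rare arms of the family. The liver list, 7 miRs with 10 rows in the table, held 16.3% ± 0.323 of the counts (SD, n = 3), between 16.1% and 16.7% in each batch, and miR-192-5p was its second member by counts. The list was uneven, since miR-148a-3p gave 3169 of its 4492 counts, while miR-101-3p had 2, miR-122-3p had 1 and miR-802 had 0. The list of blood cell miRs had 1 count in sum, in 1 of 8 rows, with miR-451a, miR-142 and miR-150 at 0. The muscle list had 1 count, the endothelial miR-126 had 11, and the stromal list, with miR-143 and miR-145, had 20 counts in 4 of 9 rows. Of the p53-responsive miRs, the list of miR-34, miR-192, miR-194 and miR-215 had 845 counts, but miR-34a-5p had 2 and the other rows of miR-34 had 0.

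The promoter of the host gene of miR-192 is shown because hepatocyte nuclear factor 1 (HNF1) is a known regulator of this cluster. In the RefSeq window from 250 bases before to 50 bases after the start of MIR194-2HG (chr11:64893400-64893699, minus strand, GRCh38.p14), the HNF1 dimer motif GTTAATNATTAAC, which also reads as itself on the other strand, was matched once with 1 mismatch, at chr11:64893504-64893516. The match is in capitals in the stretch below, and its center is 61 bases before the start.
MIR194-2HG: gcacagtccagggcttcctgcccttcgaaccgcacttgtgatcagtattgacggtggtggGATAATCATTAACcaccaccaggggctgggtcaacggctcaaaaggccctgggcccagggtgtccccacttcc
With up to 1 mismatch the motif was in 51 of 35116 promoter windows of the same length (0.145%). The IARS2 window had no match, and those of MIR215 and MIR194-1 were not analysed here. A match describes the letters and is not a measured binding site.

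Seed matches were read from the longest annotated 3′ UTR of each protein-coding gene in GENCODE 29 (GRCh38). The heptamer TAGGTCA, which pairs with the seed of miR-192-5p and miR-215-5p, was in 1256 of 19111 genes (6.57%). It was in 5 of 7 genes described in other cells as targets of miR-192 or miR-215, namely ZEB2, TYMS, XIAP, MDM2 and RICTOR, and not in ZEB1 or DTL. The heptamer CTGTTAC, for the seed of miR-194-5p, was in 1911 genes (10.0%) and in 2 of 4 described targets of miR-194, HBEGF and IGF1R, and not in CDH2 or RAC1. The 3′ UTRs of the 7 genes are long, with a median of 4385 bases beside 1106 for all genes, and 3 of the 7 also held CTGTTAC. These short lists were chosen as known targets, so the counts are no independent evidence. The study asked about genes of fibrosis. It took predicted targets from miRWalk, which reads complete transcripts, and gave the EVs to mice. The 7 miRs it named with predicted fibrosis targets include no member of this family. The search here read exact heptamers in human 3′ UTRs alone, so it does not repeat that prediction. Of 72 collagen, MMP, TIMP and ACTA2 genes, 4 (5.56%) held the first heptamer, beside 6.57% of all genes. The second was in 6 (8.33%), beside 10.0%. Genes with the first were COL5A1, COL8A2, COL20A1 and MMP16. Those with the second were COL4A2, COL4A4, COL9A2, COL11A2, COL20A1 and TIMP4. Sites are shown for known targets and for 1 collagen gene, as the DNA letters of the transcript strand with the match in capitals.
ZEB2 (a repressor of E-cadherin, chr2:144388481-144388509, minus strand, exon 10 of 10): cattcatttaatttTAGGTCAaataacat
TYMS (thymidylate synthase, chr18:673080-673108, plus strand, exon 7 of 7): aaagaaaaaggaacTAGGTCAaaaatctg
COL8A2 (a collagen VIII chain, chr1:36095751-36095779, minus strand, exon 4 of 4): aacctcttcttcccTAGGTCAaagccact
HBEGF (a ligand of the EGF receptor, chr5:140332904-140332932, minus strand, exon 6 of 6): gtgccatttctgaaCTGTTACaacttgta
IGF1R (the IGF1 receptor, chr15:98959036-98959064, plus strand, exon 21 of 21): cacagcattggagcCTGTTACagtgcaag
The messenger RNAs of these genes were not measured in these libraries, and a match is a description of the reference sequence.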

How the data were processed

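Small RNA was measured in 3 batches of HepG2 EVs. The authors made libraries with a NEBNext kit from RNA isolated with a miRNeasy kit and sequenced them on an Illumina MiniSeq. The deposited values are raw counts, not normalized, for each miR in each batch. The submitters' processing notes name GRCh38, and neither aligner nor counter is given in the sources used here. Ligation of adapters favors some sequences, so counts do not measure molecules directly, and reads of near-identical miRs can be assigned to either. A second deposited sheet repeats the counts of 205 rows, and the authors' mean column was not used. Nothing states that the batches were separate cultures, so differences between these libraries may be technical. The multinomial, Fisher and binomial tests take counting error as the only noise and include no spread between libraries.

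Shares, Wilson and exact intervals, log2 ratios (0.5 added), exact multinomial tests and Fisher's exact tests by full enumeration (at least 30 summed counts, Benjamini-Hochberg, threshold 0.05) were computed. Only the code of the multinomial and Fisher tests was checked on simulated counts. Those counts held no spread between libraries beyond counting error, so the check does not cover such spread. The members, lists and tests were chosen with earlier results of these data known. The list of 7 described targets is not complete, since 1 further gene is not reported here. Named were all arms of the family, the leading liver miRs, the 3 miRs whose ratio to miR-192-5p varied least, its neighbors in rank, members of compared clusters and list members with at least 10 counts, and miRs outside this rule were named after their values were seen. Alternatives were TMM, DESeq2 and reduced totals, count minimums of 10 and 2, 1 added in ratios, summed batches and each batch left out. Python 3.11.15 with pandas 2.3.3, numpy 2.4.6, matplotlib 3.10.9 and scipy 1.17.1 were used, and edgeR 4.0.16 and DESeq2 1.42.0 were run in R 4.3.3.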

Additional observations from a re-analysis of the deposited data

How the results depend on the processing

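Of 103 values under alternatives, 88 kept their direction and side of the threshold or stayed within the spread, 12 moved, 3 passed the threshold and 0 reversed. The adjusted p of miR-192-5p between batches was 6.73e-08 with TMM, 1.64e-06 with DESeq2 size factors and 1.56e-09 on totals without the 5 most abundant miRs, on which the mean share was 7.45% for miR-192-5p and 0.144% for miR-194-5p. The number of miRs that differed was 15 on those totals, 4 to 18 with a batch left out, and 5, 3 and 3 under the 3 scalings without batch 1. The number whose ratio to miR-192-5p differed was 3 to 21 with a batch left out (3 without batch 1, 15 without batch 3). The log2 ratio of miR-192-5p to miR-192-3p was 8.09 with 1 added and 10.68 in summed counts, since it rests on the number added to 0. miR-192-5p was at rank 6 to 8 with a batch left out. No paired analysis was possible because the series has 1 group. Without batch 1 the mean share of miR-215-5p was 0.00462% and that of miR-194-3p 0%, moves within 1 SD over the batches but above 1.5 times. The 17, 4, 2 and 0 counts of the rare arms limit every ratio that uses them.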
